A study of Mus musculus with 12 samples.

Results

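The activity-regulated immediate early genes were followed across the hippocampus of C57BL/6 mice. Each animal was dosed intranasally with 10 µg of siRNA (small interfering RNA) and killed after 3 days. The set was a list of 38 gene names, and every non-intronic locus carrying one of them was taken. It held 36 of the names, at 37 of the 22306 loci in the deposited tables. Ier2 and Maff were not analysed here. Each of the 3 groups held 4 libraries. The controls, siScramble, received a scrambled siRNA. The siHdac4 group received siRNA to Hdac4, whose product represses transcription as a histone deacetylase, and the siBdnf group siRNA to Bdnf, which encodes a secreted growth factor. All 3 groups therefore share strain, region, dose, route and time, and differ by the siRNA named.

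Immediate early genes are switched on within minutes of a stimulus, without new protein synthesis, by transcription factors that are already present. In neurons, calcium entry and kinase cascades reach CREB, which binds the cAMP response element, and SRF with its ternary complex partners, which bind the CArG box. Their products are transcription factors of the AP-1, EGR, NR4A and Npas4 families, phosphatases and other proteins that end the response, and proteins acting at the synapse. In the hippocampus they are widely used as markers of recent neuronal activity, and several are needed for lasting synaptic change and memory.

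The promoters of 7 genes are shown because they differ in the CREB motif, and each one found with TGACGTCA is among them. Each is the 250 bases before the annotated start in RefSeq, build GRCm38.p6, read 5′ to 3′. Capitals mark the full element TGACGTCA and its shorter core TGACG, or CGTCA where the core lies on the opposite strand. Dusp1 lies at chr17:26508473-26508722 (minus strand), Btg2 at chr1:134079156-134079405 (minus strand), Arl4d at chr11:101665291-101665540 (plus strand), Plk2 at chr13:110394794-110395043 (plus strand), Fos at chr12:85473640-85473889 (plus strand), Nr4a3 at chr4:48045055-48045304 (plus strand) and Jun at chr4:95052223-95052472 (minus strand).
Dusp1: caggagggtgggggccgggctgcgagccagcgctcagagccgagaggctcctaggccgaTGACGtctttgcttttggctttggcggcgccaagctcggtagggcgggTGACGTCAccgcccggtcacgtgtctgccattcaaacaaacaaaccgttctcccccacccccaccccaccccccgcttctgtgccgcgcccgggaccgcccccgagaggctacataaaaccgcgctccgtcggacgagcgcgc
Btg2: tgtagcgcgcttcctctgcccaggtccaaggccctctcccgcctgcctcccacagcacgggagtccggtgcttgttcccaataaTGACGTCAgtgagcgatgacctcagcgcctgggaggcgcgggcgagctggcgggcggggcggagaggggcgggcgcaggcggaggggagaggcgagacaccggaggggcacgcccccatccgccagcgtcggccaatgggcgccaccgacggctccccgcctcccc
Arl4d: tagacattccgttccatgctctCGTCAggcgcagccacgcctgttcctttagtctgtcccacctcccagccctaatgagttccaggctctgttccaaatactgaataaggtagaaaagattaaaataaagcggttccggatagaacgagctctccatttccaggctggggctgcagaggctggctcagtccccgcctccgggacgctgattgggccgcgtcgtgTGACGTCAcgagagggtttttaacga
Plk2: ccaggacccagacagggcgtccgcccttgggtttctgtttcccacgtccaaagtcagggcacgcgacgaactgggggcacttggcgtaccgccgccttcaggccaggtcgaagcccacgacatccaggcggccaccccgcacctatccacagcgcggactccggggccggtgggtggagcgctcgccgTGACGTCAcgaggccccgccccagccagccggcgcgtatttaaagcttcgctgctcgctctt
Fos: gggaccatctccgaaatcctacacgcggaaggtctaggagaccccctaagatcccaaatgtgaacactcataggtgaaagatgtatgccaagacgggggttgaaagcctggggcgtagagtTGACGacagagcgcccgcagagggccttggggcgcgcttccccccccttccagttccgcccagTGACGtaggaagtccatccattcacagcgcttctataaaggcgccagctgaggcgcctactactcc
Nr4a3: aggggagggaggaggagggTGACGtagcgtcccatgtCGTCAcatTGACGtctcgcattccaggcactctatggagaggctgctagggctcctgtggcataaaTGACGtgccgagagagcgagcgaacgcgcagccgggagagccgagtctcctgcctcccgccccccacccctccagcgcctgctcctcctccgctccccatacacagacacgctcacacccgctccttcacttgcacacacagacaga
Jun: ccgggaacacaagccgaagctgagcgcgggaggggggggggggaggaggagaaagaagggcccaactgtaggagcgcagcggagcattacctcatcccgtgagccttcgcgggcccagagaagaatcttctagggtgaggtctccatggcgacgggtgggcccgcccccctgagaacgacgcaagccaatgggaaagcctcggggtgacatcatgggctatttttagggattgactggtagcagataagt
Of the 36 genes found, 30 had such a window. Arc, Egr1, Egr3, Sik1, Nptx2 and Trib1 had none, so their motifs were not examined. TGACGTCA was present in 4 of the 30, namely Dusp1, Btg2, Arl4d and Plk2, against 1.77% of 27025 mouse genes. TGACG on either strand, which every full element also holds, was present in 19 of the 30, against 19.8% of all genes. The window of Nr4a3 held 4 copies of the core and no full element, that of Fos held 2 copies of the core, and that of Jun held neither. A CArG box was found for Egr2, which had 5 windows, and for Dusp5, which had 1, against 1.62% of all genes. These are matches of letters within this window and not measured binding sites.

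The values are FPKM, fragments counted per length of transcript and per depth of library, so levels of different genes can be set side by side. Of the 37 loci, 33 reached a mean of 1 FPKM over the 12 libraries and were tested among 18387 loci. The 4 others were Egr4 at a mean of 0.978 FPKM, Inhba at 0.904, an antisense locus of Inhba at 0.739 and Atf3 at 0.490. Plk2, a polo-like kinase of the synapse, had the highest mean at 128 FPKM. It was followed by the synaptic gene Arc at 26.9, the scaffold gene Homer1 at 20.7, the ERK phosphatase gene Dusp6 at 18.9 and the orphan receptor gene Nr4a2 at 14.5 FPKM. Fos lay in the middle, at 5.62 FPKM. The locus of Egr2 spans 225282 bases, 29.2 times the annotated gene, and overlaps Ado, so its value may hold other transcripts. The loci of Npas4 (0.299 of the annotated gene length), Fosb (0.393) and Inhba (0.125) cover only part of their genes, and the Jund locus overlaps Gm11175.

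Neither targeted transcript was lower, beyond the spread between libraries, where its siRNA was labelled. Hdac4 was at 41.0 ± 5.93 FPKM in siHdac4 and 39.1 ± 5.94 in siScramble (limma adjusted p = 0.863). Bdnf was at 5.19 ± 0.255 FPKM in siBdnf and 5.37 ± 0.174 in siScramble (SD, n = 4 each; limma adjusted p = 0.906). The groups are named by their labels for that reason. Markers of hippocampal excitatory neurons, 10 of 10 found, summed to between 482 and 806 FPKM in the 12 libraries. Markers of choroid plexus and ependyma, 15 of 15 found, summed to 1100 and 2751 FPKM in siScramble libraries 1 and 3, and to between 71.9 and 171 FPKM in the 10 others. The tables give no read totals. The spacing of low values resolved how much FPKM 1 read is worth, as a ratio to siScramble library 1, in 4 of 11 libraries, from 0.953 for siHdac4 library 1 to 1.31 for siScramble library 2. Nothing in the labels ties a library to an animal of its own, so the p-values reflect the spread between libraries, which may be technical. In whole tissue, fewer cells of a type and less RNA per cell cannot be told apart.

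No immediate early gene differed between groups past an adjusted p of 0.05. With limma, adjusted over all loci, 0 of 33 passed in siHdac4 against siScramble (0.261% of all loci), 0 in siBdnf against siScramble (0.277%) and 0 in siHdac4 against siBdnf (0.0272%). At an unadjusted p below 0.05 there were 3, 1 and 1, against 10.1%, 8.85% and 15.6% of all loci. Fos, Junb, Dusp1 and Btg2, among others, had both their highest and their lowest level of the whole experiment within the 4 siScramble libraries. The share of all loci with both extremes there was not counted. The SD was largest in siScramble in 25 of the 33 genes, against 56.7% of all loci. Both siRNA comparisons rest on those same 4 controls.

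**Figure D1:**
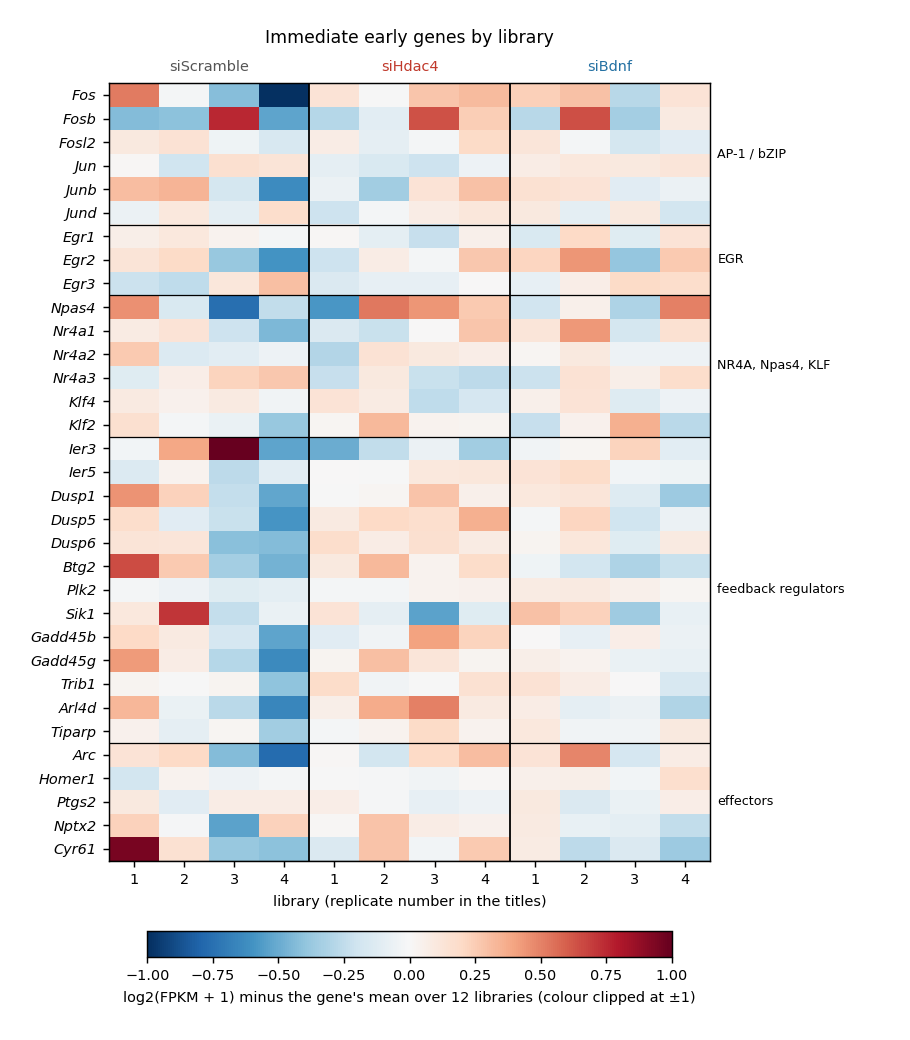
Deviation of 33 immediate early genes (rows, grouped by role) from each gene's mean over 12 libraries, on the log2(FPKM + 1) scale, with the libraries of the 3 groups in columns. Blue cells gather in siScramble libraries 3 and 4, where Fos, Arc, Btg2, Dusp1 and Gadd45g are low, and the siHdac4 and siBdnf columns are paler.

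Among the AP-1 family, whose Fos and Jun proteins pair to bind DNA, Fos gave the widest fold range of the genes tested. In library order, Fos stood at 8.14, 5.27, 3.73 and 1.80 FPKM in siScramble, at 5.99, 5.35, 6.70 and 6.95 in siHdac4, and at 6.52, 6.78, 4.25 and 6.01 in siBdnf. The highest and the lowest of the 12 values are both controls, 4.53-fold apart, and the 8 treated libraries lie between them. The log2 fold change was 0.46 in siHdac4 (95% interval −0.16 to 1.08; limma adjusted p = 0.568) and 0.38 in siBdnf (−0.25 to 1.00; adjusted p = 0.729). Single controls moved both values: without siScramble replicate 4 they were 0.16 and 0.075, and without replicate 1 they were 0.73 and 0.64.

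Junb, a partner of Fos that restrains Jun, also had siScramble libraries 1 and 2 above libraries 3 and 4. It was at 12.4, 12.7, 8.58 and 6.00 FPKM in siScramble, 9.38, 7.50, 10.9 and 12.2 in siHdac4, and 10.98, 10.8, 8.99 and 9.38 in siBdnf. The 3 groups overlap, and their means of 9.91 ± 3.20, 9.99 ± 2.03 and 10.1 ± 1.01 FPKM (SD, n = 4 each) differ by far less than the control libraries do among themselves. Limma gave log2 fold changes of 0.04 and 0.07 against siScramble (adjusted p = 0.952 and 0.953).

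Jun, the main AP-1 partner, ran the other way in the controls. It was at 13.9, 11.9, 15.5 and 15.1 FPKM in siScramble. It was at 12.9, 12.3, 11.8 and 13.2 FPKM in siHdac4, and at 14.5, 14.8, 14.8 and 15.1 in siBdnf. Every siHdac4 library lay below every siBdnf library, and siScramble, from 11.9 to 15.5 FPKM, overlapped both. The log2 fold change of siHdac4 against siBdnf was −0.22 (95% interval −0.39 to −0.06; unadjusted p = 0.0129, limma adjusted p = 0.239), so the difference did not pass after adjustment. In that comparison Jun lay wholly lower and Btg2 wholly higher in siHdac4, 2 of 33 genes against 13% of all loci (8.45% lower and 4.51% higher).

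Of the other AP-1 and related genes, Fosb reached 3.34 FPKM in siScramble library 3 and lay between 0.785 and 0.941 in the other 3 controls. Its values were 1.11, 1.39, 3.00 and 2.06 FPKM in siHdac4 and 1.12, 3.01, 1.03 and 1.74 in siBdnf, so each group held at least 1 library near 3 FPKM. Fosl2, a slower Fos relative, ranged from 4.32 to 5.88 FPKM over the 12 libraries, and Jund, which is expressed more constantly, from 6.05 to 8.20. Atf3, a stress-induced bZIP factor, was at 1.04 FPKM in siScramble library 1 and between 0.123 and 0.832 in the 11 others. Of the 6 members of this family that were tested, 4 had a log2 fold change above 0 in each siRNA group against siScramble, and 0 passed.

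The EGR genes code for zinc-finger factors that relay the first wave of transcription to later targets. Egr1, the most studied of them, was nearly level. It was at 4.89, 5.07, 4.79 and 4.58 FPKM in siScramble, 4.70, 4.28, 3.81 and 4.85 in siHdac4, and 4.08, 5.49, 4.19 and 5.21 in siBdnf. Its controls are the tightest of the 3 groups (SD 0.207 FPKM), unlike those of Fos, and all groups overlap. Limma gave −0.11 on the log2 scale in siHdac4 (95% interval −0.32 to 0.10; adjusted p = 0.685) and −0.03 in siBdnf (−0.24 to 0.18; adjusted p = 0.957).

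Egr2, with the locus described above, was at 1.32, 1.42, 0.634 and 0.405 FPKM in siScramble, 0.842, 1.23, 1.09 and 1.55 in siHdac4, and 1.46, 1.88, 0.627 and 1.55 in siBdnf. Its controls split as those of Fos do, with libraries 3 and 4 low, and siBdnf library 3 was as low as siScramble library 3. Egr3 went the opposite way, at 5.63, 5.43, 7.30 and 8.44 FPKM in siScramble, within 5.93 to 6.70 in siHdac4 and within 6.26 to 7.77 in siBdnf. Egr4 was below the level needed for the test, at 0.984, 1.06, 0.741 and 0.653 FPKM in siScramble, 0.893 to 1.25 in siHdac4 and 0.579 to 1.34 in siBdnf. For Egr2 the log2 fold change was 0.19 in siHdac4 (limma adjusted p = 0.749) and 0.30 in siBdnf (adjusted p = 0.708).

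Npas4 codes for a neuron-specific factor that is induced by calcium entry and shapes inhibitory synapses. It was at 4.93, 2.88, 1.57 and 2.65 FPKM in siScramble, 1.90, 5.24, 4.87 and 4.18 in siHdac4, and 2.79, 3.48, 2.49 and 5.12 in siBdnf. High and low libraries occur in every group, and the groups overlap over most of their range. Against siScramble the log2 fold change was 0.34 in siHdac4 (95% interval −0.30 to 0.97; limma adjusted p = 0.683) and 0.19 in siBdnf (−0.45 to 0.82; adjusted p = 0.892).

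The NR4A genes code for orphan nuclear receptors needed for long-term memory in mice. Nr4a1 was at 7.91, 8.23, 6.27 and 5.15 FPKM in siScramble, 6.60, 6.21, 7.44 and 9.19 in siHdac4, and 8.16, 10.4, 6.45 and 8.35 in siBdnf. Its 3 groups overlap, with the lowest value again in siScramble library 4 (limma adjusted p = 0.860 in siHdac4 and 0.689 in siBdnf). Nr4a2 had a mean of 14.5, 14.6 and 14.5 FPKM in siScramble, siHdac4 and siBdnf, and log2 fold changes of 0.01 in both comparisons with siScramble.

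Nr4a3 had siScramble libraries 1 and 2 below libraries 3 and 4, unlike Nr4a1. It was at 9.19, 10.6, 11.95 and 12.3 FPKM in siScramble, 8.47, 10.9, 8.52 and 8.26 in siHdac4, and 8.57, 11.3, 10.6 and 11.6 in siBdnf. In siHdac4, 3 libraries lay below every control, and library 2 lay among them. The log2 fold change in siHdac4 was −0.26 (95% interval −0.52 to −0.00; unadjusted p = 0.0466, limma adjusted p = 0.489). Klf4 ranged from 0.826 to 1.40 FPKM and Klf2 from 0.842 to 2.07, both Krüppel-like factors, with 4 of the 6 genes of this class above 0 in each siRNA group and 0 past the test.

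**Figure D2:**
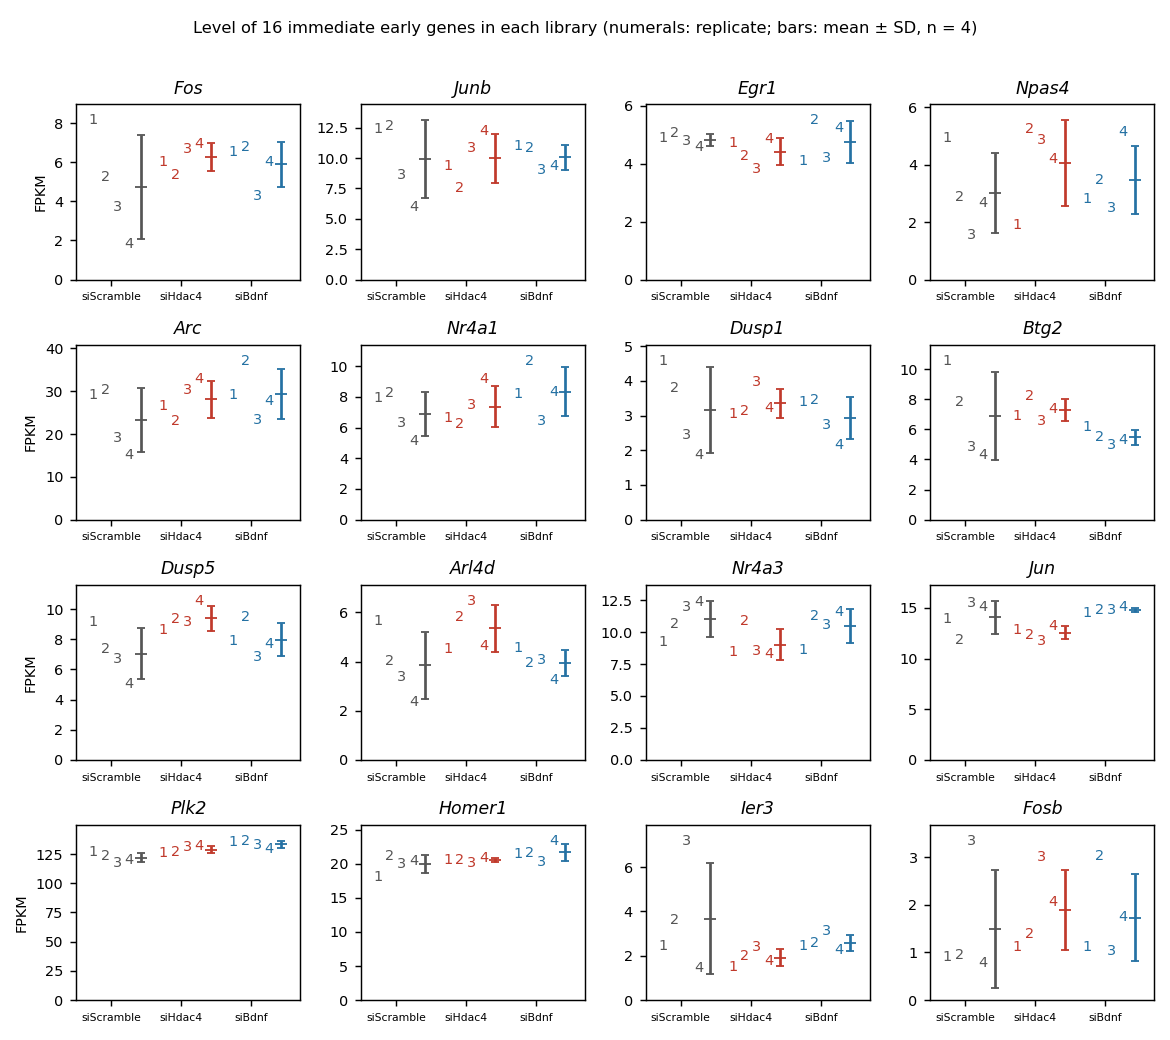
FPKM of 16 immediate early genes in each library (numerals give the replicate number, bars the mean ± SD of 4 libraries; each axis starts at 0). For Fos, Arc and Dusp1 siScramble libraries 1 and 2 lie well above libraries 3 and 4. Plk2, Homer1 and Egr1 are nearly level, though Plk2 and Egr1 keep that order within a narrow range.

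The largest class was that of phosphatases, kinases and other regulators that limit the response, with 13 genes tested. In siHdac4, 11 of the 13 had a log2 fold change above 0, with a median of 0.16, and in siBdnf 9 of 13, with a median of 0.09, none of them past the test. Over all loci 47.5% and 56.4% were above 0, with medians of −0.01 and 0.02. Both comparisons include siScramble library 4, where this class lay on average 0.41 below its 12-library mean on the log2 scale.

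Dusp1, a phosphatase that switches off MAP kinases, was at 4.59, 3.79, 2.45 and 1.85 FPKM in siScramble, 3.06, 3.13, 3.98 and 3.23 in siHdac4, and 3.38, 3.45, 2.72 and 2.16 in siBdnf. The controls again held both the highest and the lowest value, 2.47-fold apart. Its log2 fold change was 0.10 in siHdac4 (95% interval −0.32 to 0.53; limma adjusted p = 0.864) and −0.05 in siBdnf (−0.47 to 0.37; adjusted p = 0.962).

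Dusp5, a nuclear ERK phosphatase, had the smallest p of all members in siHdac4. It was at 9.15, 7.32, 6.70 and 4.9997 FPKM in siScramble, 8.60, 9.34, 9.11 and 10.6 in siHdac4, and 7.91, 9.44, 6.84 and 7.65 in siBdnf. All siHdac4 libraries but the first exceeded 9 FPKM, yet siScramble library 1 lay among them. Against siScramble the log2 fold change was 0.39 (95% interval 0.08 to 0.71; unadjusted p = 0.0185, limma adjusted p = 0.458). It was 0.26 without siScramble replicate 4 and 0.51 without replicate 1 (limma adjusted p = 0.0753). Dusp6, the cytoplasmic counterpart, was at 20.5, 20.4, 13.7 and 13.6 FPKM in siScramble and between 17.1 and 21.2 in the 8 treated libraries (log2 fold change 0.27 in siHdac4, limma adjusted p = 0.497).

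Arl4d, a small GTPase of the ARF family, was at 5.64, 4.02, 3.36 and 2.35 FPKM in siScramble, 4.50, 5.82, 6.48 and 4.62 in siHdac4, and 4.54, 3.96, 4.06 and 3.27 in siBdnf. Only siScramble library 1 reached into the range of siHdac4. Its log2 fold change was 0.42 in siHdac4 (95% interval 0.02 to 0.83; unadjusted p = 0.0413, limma adjusted p = 0.486) and 0.07 in siBdnf (−0.33 to 0.48; adjusted p = 0.942). Without siScramble replicate 4 the siHdac4 value was 0.26, and without replicate 1 it was 0.59 (limma adjusted p = 0.0873).

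Btg2, an antiproliferative protein that speeds mRNA decay, separated the treated groups from each other. It was at 10.6, 7.84, 4.83 and 4.31 FPKM in siScramble, 6.88, 8.22, 6.55 and 7.36 in siHdac4, and 6.16, 5.47, 4.94 and 5.30 in siBdnf. Every siHdac4 library lay above every siBdnf library, and the controls ran past both at either end. The log2 fold change of siHdac4 against siBdnf was 0.35 (95% interval −0.10 to 0.80; limma adjusted p = 0.420).

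Plk2 was the one member whose siBdnf libraries all exceeded the controls, 1 of 33 against 3.28% of all loci, while 0 lay wholly below them against 1.81% (5.09% either way). It was at 126, 123, 118 and 119.5 FPKM in siScramble, 126, 126, 131 and 132 in siHdac4, and 135, 136, 133 and 129.7 in siBdnf. The log2 fold change in siBdnf was small, 0.13 (95% interval 0.03 to 0.23; unadjusted p = 0.0141, limma adjusted p = 0.464). In siHdac4 0 of 33 members lay wholly outside the controls, against 3.75% of all loci (1.71% above and 2.04% below).

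Ier3, which acts in cell survival, is named after its values were seen, because the authors' own test called it. It was at 2.45, 3.59, 7.19 and 1.45 FPKM in siScramble, 1.502, 1.98, 2.39 and 1.77 in siHdac4, and 2.43, 2.57, 3.10 and 2.28 in siBdnf. A single control library, siScramble library 3, stood above all others, and the lowest value was also a control. That library also had the highest sum of choroid plexus and ependyma markers, 2751 FPKM; the part of those cells in the Ier3 value was not tested. The authors' deposited table lists Ier3 at a log2 fold change of −0.94 for siHdac4 with an FDR of 0.0192, 1 of 37 loci past 0.05 against 0.991% of all loci. Limma gave −0.55 (95% interval −1.17 to 0.07; adjusted p = 0.518), which was −0.23 without siScramble replicate 3 and −0.81 without replicate 4.

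Of the 6 remaining regulators, 4 were lowest in siScramble library 4. Gadd45b and Gadd45g, stress sensors linked to DNA demethylation, stood there at 1.89 and 4.99 FPKM, as were the pseudokinase gene Trib1 at 0.784 and the ADP-ribosyltransferase gene Tiparp at 7.10. Sik1, a kinase that dampens CREB coactivators, was highest in siScramble library 2 at 7.51 FPKM and lowest in siHdac4 library 3 at 2.58. Ier5, a regulator of heat shock factor, ranged from 3.68 to 5.38 FPKM, with log2 fold changes of 0.17 and 0.18 against siScramble (limma adjusted p = 0.502 and 0.577).

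Among the effectors, Arc, which forms capsid-like particles and drives AMPA receptor removal, likewise had siScramble libraries 1 and 2 above libraries 3 and 4. It was at 29.0, 30.3, 19.2 and 15.0 FPKM in siScramble, 26.5, 23.0, 30.3 and 32.8 in siHdac4, and 29.0, 37.1, 23.2 and 27.6 in siBdnf. All 8 treated libraries exceeded siScramble libraries 3 and 4, and libraries 1 and 2 lay among the treated ones. The authors' deposited table lists Arc at a log2 fold change of 0.32 for siBdnf with an FDR of 0.0334, 1 of 37 loci against 0.632% of all loci. Limma gave 0.35 in siBdnf (95% interval −0.12 to 0.81; adjusted p = 0.660) and 0.30 in siHdac4 (−0.16 to 0.76; adjusted p = 0.615). Without siScramble replicate 4 these values were 0.16 and 0.12, and without replicate 2 they were 0.49 and 0.44.

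Homer1, a scaffold of metabotropic glutamate receptors, was at 18.1, 21.2, 19.9 and 20.4 FPKM in siScramble. It was at 20.6, 20.5, 20.2 and 20.8 FPKM in siHdac4, and at 21.5, 21.5, 20.3 and 23.4 in siBdnf. The groups overlap within a narrow range (log2 fold change 0.12 in siBdnf, 95% interval −0.01 to 0.25; limma adjusted p = 0.598). The locus does not separate the short, activity-induced form from the long one.

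Cyr61, a matrix protein gene, was at 3.79 FPKM in siScramble library 1 and between 0.865 and 2.01 in the 11 others. Nptx2, which clusters AMPA receptors, ranged from 3.02 to 6.11 FPKM, both in libraries outside siBdnf. Ptgs2, the inducible cyclooxygenase of excitatory neurons, varied little, from 5.34 to 6.52 FPKM. Inhba, a subunit of activin, was below the tested level, between 0.582 and 1.21 FPKM. Of the 5 effectors tested, 4 had a log2 fold change above 0 in siHdac4 and 2 in siBdnf, and 0 passed.

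**Figure D3:**
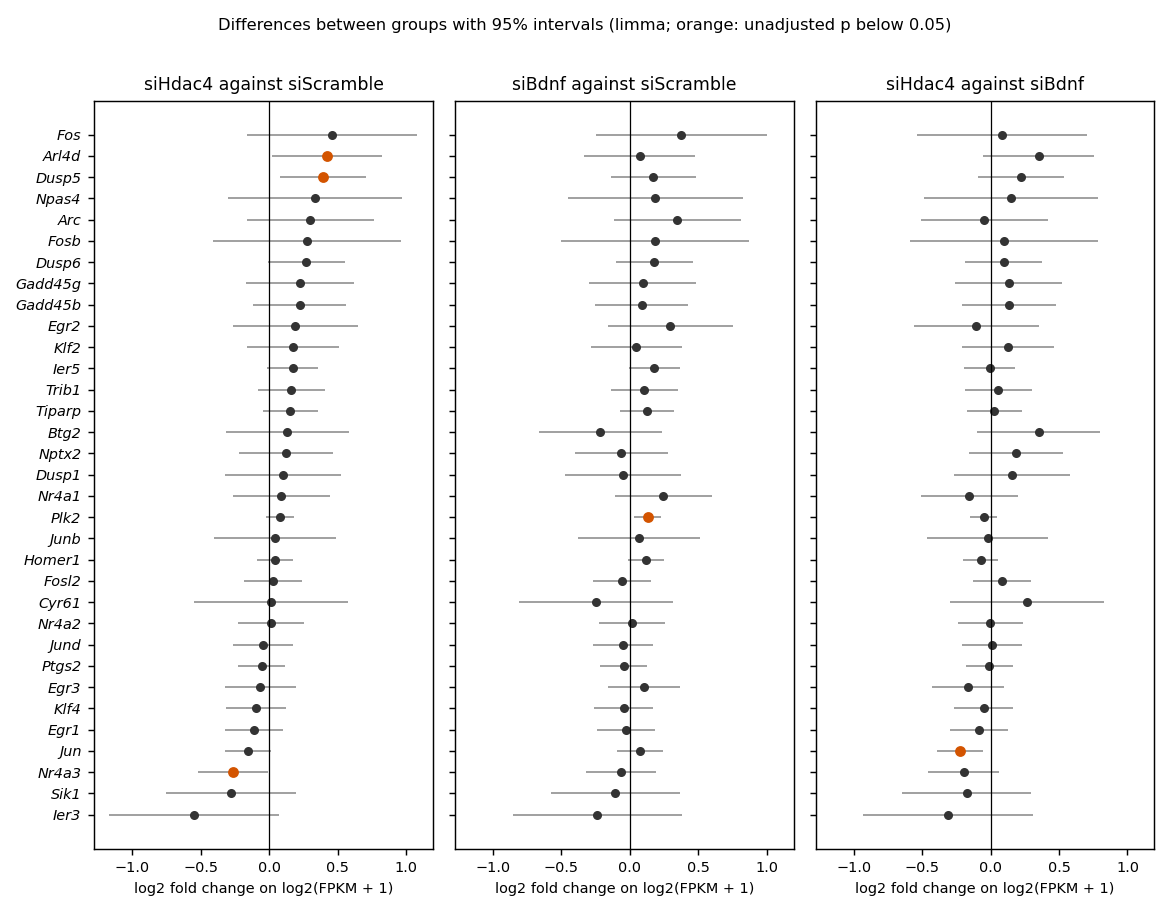
Log2 fold changes of 33 immediate early genes on the log2(FPKM + 1) scale with 95% intervals from limma, in the 3 comparisons, ordered by the siHdac4 value. Points in orange had an unadjusted p below 0.05: Dusp5, Arl4d and Nr4a3 in the left panel, Plk2 in the middle and Jun on the right; none passed after adjustment.

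Over all 33 genes, the log2 fold change was above 0 for 24 in siHdac4 (47.5% of all loci) and for 21 in siBdnf (56.4%), with medians of 0.10 and 0.07. Leaving out 1 library at a time gave 19 to 25 genes above 0 in siHdac4, with a median from 0.045 (without siScramble replicate 3) to 0.18 (without replicate 1). In siBdnf it gave 16 to 24 genes, with a median from −0.00035 (without siScramble replicate 4) to 0.11 (without replicate 1). Without siScramble libraries 1 and 3, which are high in choroid plexus transcripts, 23 and 24 genes were above 0. Libraries 3 and 4, which have the highest correlation with transcript length among the controls, were also left out together, after the data were seen. Since these genes are low in both, counts above 0 had to fall by that choice, and the values are a description. In that fit 11 genes were above 0 in siHdac4 with a median of −0.03, and 10 in siBdnf with a median of −0.07. Fos, Arc, Junb and Egr2 were then below 0 in both. For siHdac4 against siBdnf, whose fold changes use no control although its p-values share the spread of all 3 groups, 17 of 33 were above 0 (42.9% of all loci). The median was 0.01. That split was 15 to 20 when 1 library was left out, and its median −0.026 to 0.055. It moved to 21 with median scaling and 23 with quantile normalisation.

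A split of the control libraries was shared by many of the genes, and is described without a test because it was noticed in these values. In 19 of the 33 genes siScramble libraries 1 and 2 both lay above libraries 3 and 4, against 17.8% of all loci. The 19 were Fos, Fosl2, Junb, Egr1, Egr2, Arc, Npas4, Nr4a1, Dusp1, Dusp5, Dusp6, Btg2, Plk2, Sik1, Gadd45b, Gadd45g, Cyr61, Klf2 and Arl4d. The reverse order held in 3, Jun, Egr3 and Nr4a3, against 26.2% of all loci. siScramble library 4 was the lowest of all 12 libraries in 18 of 33 genes, and library 1 the highest in 7. The same counts were not made over all loci, so these are descriptions of the members only.

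As a mean over the 33 genes, the deviation from the 12-library mean was 0.15, 0.05, −0.11 and −0.29 on the log2 scale in siScramble libraries 1 to 4. It was −0.05, 0.04, 0.07 and 0.09 in siHdac4 and 0.04, 0.10, −0.08 and −0.02 in siBdnf. siScramble library 4 therefore lay lowest and library 1 highest, with every treated library between them. The feedback regulators were lowest in library 4, at −0.41. The EGR mean there was −0.10, made of Egr2 at −0.59, Egr1 at −0.02 and Egr3 at 0.30.

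**Figure D4:**
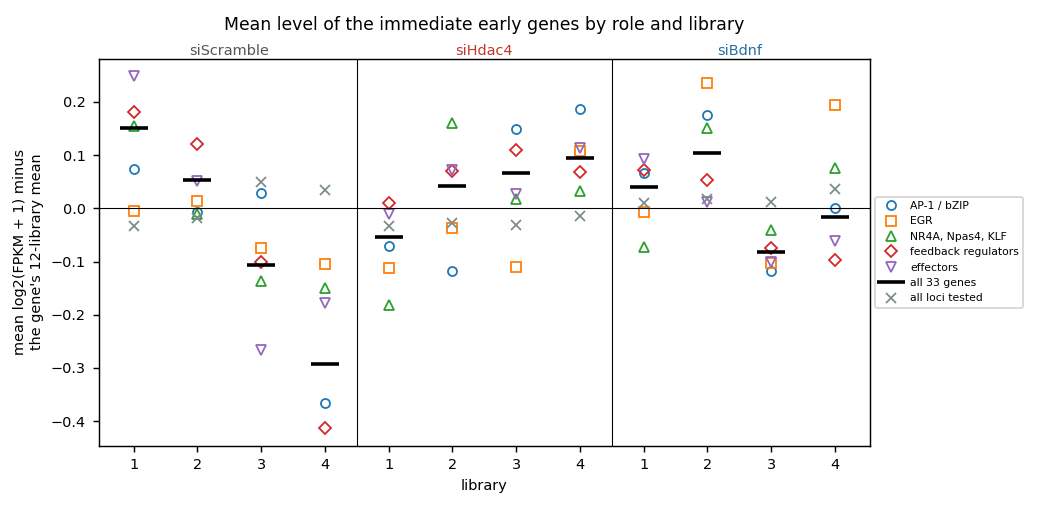
Mean deviation from the 12-library mean, on the log2(FPKM + 1) scale, of the immediate early genes by role (open symbols), of all 33 genes (black bars) and of all 18387 loci tested (crosses), in each library. For the 33 genes siScramble library 1 is at 0.15 and library 4 at −0.29, while the mean of all loci stays between −0.03 and 0.05.

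Of the other measures of these libraries, the association with transcript length and the sums of microglia and astrocyte markers also separated siScramble libraries 1 and 2 from 3 and 4. The rank correlation of a locus's deviation with transcript length, over 10375 protein-coding loci, was −0.10, −0.00, 0.16 and 0.18 in siScramble libraries 1 to 4, and between −0.18 and 0.12 in the treated ones. After each library was corrected for length and GC content, 17 of 31 genes with a known transcript kept the order of libraries 1 and 2 above 3 and 4, beside 18 of 31 uncorrected and 20.6% of protein-coding loci corrected. The choroid plexus and ependyma sums were 1100, 89.3, 2751 and 77.6 FPKM in siScramble libraries 1 to 4, with libraries 1 and 3 high. Excitatory neuron markers summed to 711, 482, 650 and 697 FPKM in siScramble libraries 1 to 4, with the lowest sum in library 2. Microglia markers summed to 101, 93.4, 82.5 and 89.0 FPKM in the same libraries, higher in 1 and 2. Astrocyte markers summed to 644, 618, 693 and 704 FPKM, lower in 1 and 2. Endothelium and oligodendrocyte sums did not split in this way. The correction took the longest known transcript of each gene, so it need not remove every effect of length on single genes. The part of transcript length and that of tissue composition in the levels of the immediate early genes were not tested.

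The spread shows the same contrast between groups. On the log2(FPKM + 1) scale the controls had a median SD of 0.31 over the 33 genes, and siHdac4 and siBdnf of 0.14 each, beside 0.18, 0.13 and 0.12 over all loci. In 25 of the 33 genes the SD was largest in siScramble, against 56.7% of all loci. Ier3 (0.74), Fos (0.72), Cyr61 (0.64) and Fosb (0.61) varied most among controls, and Plk2 (0.05) and Homer1 (0.09) were among the steadiest. Npas4 varied widely in every group, with SDs of 0.50, 0.51 and 0.36.

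The pathways on either side of these genes gave no call. Of 27 genes for calcium and kinase signalling, limma called 0 in any comparison. At an unadjusted p below 0.05, 2 were higher and 5 lower in siHdac4, and 1 was lower in siBdnf. In siHdac4 against siBdnf 2 were higher and 3 lower. The shares of all loci at that p were 4.51% higher and 5.63% lower in siHdac4, 5.72% and 3.13% in siBdnf, and 5.14% and 10.4% in siHdac4 against siBdnf. Camk2a, the kinase that decodes calcium at synapses, was at 96.4 ± 9.33 FPKM in siHdac4 and 138 ± 36.6 in siScramble (log2 fold change −0.48; adjusted p = 0.454). Ppp3cb, a catalytic subunit of calcineurin, was at 54.3 ± 2.36 FPKM in siBdnf and 62.0 ± 4.26 in siScramble (log2 fold change −0.19; limma adjusted p = 0.466).

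Of 19 transcription factors and coactivators that act on immediate early genes, 0 were called, and at an unadjusted p below 0.05 5 were lower in siHdac4 (5.63% of all loci), 1 was higher in siBdnf (5.72%) and 2 were lower in siHdac4 against siBdnf (10.4%). The 3 of smallest p in siHdac4 were the CREB coactivator gene Crtc2 (log2 fold change −0.39), the SRF partner gene Elk4 (−0.39) and the acetyltransferase gene Ep300 (−0.26), each with a limma adjusted p of 0.458. Elk1, another SRF partner, had a log2 fold change of 0.15 in siBdnf (limma adjusted p = 0.534).

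Of 26 later activity-regulated genes tested, 0 were called, with 3 higher in siHdac4 (4.51% of all loci) and 2 in siBdnf (5.72%) at an unadjusted p below 0.05. In siHdac4 against siBdnf 1 was higher (5.14%) and 2 were lower (10.4%). They included Rgs2, a brake on G protein signalling, with a log2 fold change of 0.21 in siHdac4 (limma adjusted p = 0.458), and the enkephalin precursor gene Penk with 0.32 (adjusted p = 0.485). The neuropeptide gene Npy was at 82.6 ± 27.7 FPKM in siHdac4 and 139.7 ± 26.3 in siBdnf (n = 4 each, with the SD; log2 fold change −0.78; limma adjusted p = 0.226).

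Lists for stress gave no call either. Of 13 glucocorticoid receptor targets 0 were called and 1 had an unadjusted p below 0.05 in any comparison, Zbtb16, lower in siHdac4 (5.63% of all loci; log2 fold change −0.25; limma adjusted p = 0.458). Of 12 heat shock genes 0 were called. At an unadjusted p below 0.05, 1 was lower in siHdac4 (5.63% of all loci), Hspb1 at −0.41 (limma adjusted p = 0.458), and 1 higher (4.51%), Hspa8 at 0.18 (adjusted p = 0.489). In siBdnf 1 was higher (5.72%), Hspd1 at 0.22 (limma adjusted p = 0.422). In siHdac4 against siBdnf 2 were lower (10.4%), Hspd1 at −0.18 (limma adjusted p = 0.252) and Bag3 at −0.45 (adjusted p = 0.320).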

How the data were processed

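TRIzol-extracted RNA was poly-A selected for directional sequencing, per the labels' protocols. Tools listed in the submitters' processing notes are TopHat2 2.0.9, Cuffdiff and Cufflinks. Not given in the sources used here are the genome build and how libraries were scaled. The authors deposited 2 tables with FPKM per library, a log2 fold change, and a p-value with its FDR; the siScramble columns were identical in both, and the last 3 are quoted only as the authors' deposited table.

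Tests used limma (3.58.1, R 4.3.3) with a trended prior variance on log2(FPKM + 1), for loci averaging 1 FPKM or more. All 3 groups entered 1 fit, p-values were adjusted by Benjamini-Hochberg over all 18387 loci, and the threshold was 0.05. The log scale with a pseudocount understates fold changes of low genes. The fit was tested on simulated data. Promoter windows and gene names came from RefSeq, and transcript length and GC content from GENCODE, known for 93.8% of protein-coding loci tested. Python 3.11.15 (numpy 2.4.6, pandas 2.3.3) did the rest, with matplotlib 3.10.9 for plots.

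The members, roles and further lists were chosen with earlier results of these data known. Named in full were any member past the threshold, 11 classical members, up to 5 further members per comparison with an unadjusted p below 0.05, and up to 3 genes of smallest p per list, of which those with the smallest are printed. Of the marker lists, endothelium summed to between 519 and 577 FPKM over the 12 libraries, microglia to between 82.5 and 107, astrocytes to between 618 and 704 and oligodendrocytes to between 1128 and 1457. Whether shared replicate numbers pair the libraries was not settled, and the main fit did not pair them.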

Additional observations from a re-analysis of the deposited data

Results flagged for a closer look

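In 6 of 111 groups of 4 libraries, 1 library lay farther from the nearest of the others than Dixon's 95% limit allows, and chance alone would flag about 1 in 20 groups. In siScramble, Fosb was far above the rest in library 3 at 3.34 FPKM, and Atf3 in library 1 at 1.04 FPKM. Ptgs2 was far below the rest in library 2 at 5.48 FPKM, and Trib1 in library 4 at 0.784 FPKM. In siHdac4, library 2 was far above the rest for both Nr4a3, at 10.9 FPKM, and Klf2, at 1.997 FPKM.

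Jun is listed because all 4 siHdac4 libraries lay below the siScramble mean and all 4 siBdnf libraries above it. The difference between the groups was −0.22 on the log2(FPKM + 1) scale (limma adjusted p = 0.239), which did not pass the threshold.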

How the results depend on the processing

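Of 1230 values of 48 single-gene results under 26 alternatives, 1183 had the same direction and side of the threshold, 46 turned in sign and 1 passed the threshold. The causes were not tested, except where fewer loci or libraries entered by construction. The only call of a member was Btg2 in siBdnf without siScramble libraries 3 and 4 (−0.65 on the log2 scale, limma adjusted p = 0.0443). That is 1 of 33 members, against 278 of 18387 loci. Those libraries were left out after the data were seen. They held the low Btg2 values among the controls, 4.83 and 4.31 FPKM, so the siBdnf value had to fall by that choice. In that fit, 11 members were above 0 in siHdac4 and 10 in siBdnf, and 278 loci were called in siBdnf and 54 in siHdac4 against siBdnf. The signs that turned there were, in siHdac4, Fos to −0.068, Junb to −0.32, Egr2 to −0.13, Nr4a1 to −0.13, Arc to −0.084, Dusp1 to −0.26 and Btg2 to −0.30, and in siBdnf, Fos to −0.15, Junb to −0.30, Egr2 to −0.028, Npas4 to −0.14, Arc to −0.038, Dusp5 to −0.045, Arl4d to −0.22 and Nr4a3 to 0.071. Without siScramble libraries 1 and 3, Homer1 in siHdac4 turned to −0.018, and in siBdnf Dusp1 to 0.075 and Ier3 to 0.095, while 79 loci were called in siHdac4 and 9 in siHdac4 against siBdnf.

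Between siHdac4 and siBdnf, Junb turned to 0.0204 with median scaling and to 0.018 with quantile normalisation, which also took Arc to 0.0018 and Plk2 to 0.0503. The filter at 5 FPKM left 18 members, with 13, 13 and 8 above 0 in the 3 comparisons in the order siHdac4, siBdnf and siHdac4 against siBdnf, and 3 loci called in the last. Counts of called loci, 48, 51 and 5 in that order, were 1 and 2 in the first and second with protein-coding loci only, 1, 0 and 1 without loci listed at 0 through a group, 1, 2 and 3 with the length and GC correction, and 152 in the last when only the 2 groups compared were fitted. In that fit of siHdac4 and siBdnf without the controls, the smallest limma adjusted p of a member was 0.0723.

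Leaving out each library in turn gave 44 to 248 called loci in siHdac4, the highest without siScramble replicate 1, 44 to 52 in siBdnf, and 2 to 23 in siHdac4 against siBdnf, the highest again without siScramble replicate 1. No member was called in these fits. Members above 0 numbered 19 to 25 in siHdac4 and 16 to 24 in siBdnf. For single genes whose sign turned, in siHdac4 Junb ran from −0.15 to 0.17, Nr4a1 ran from −0.024 to 0.17, Dusp1 ran from −0.061 to 0.26 and Btg2 ran from −0.032 to 0.34. In siBdnf Junb ran from −0.13 to 0.19, Egr1 ran from −0.091 to 0.027, Npas4 ran from −0.0059 to 0.40, Dusp1 ran from −0.22 to 0.11, Arl4d ran from −0.091 to 0.24, Nr4a3 ran from −0.14 to 0.0203, Jun ran from −0.0013 to 0.12 and Ier3 ran from −0.50 to 0.081. In siHdac4 against siBdnf Fos ran from −0.041 to 0.15, Junb ran from −0.12 to 0.095 and Arc ran from −0.15 to 0.071.

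With the replicate number as a block, 47, 52 and 4 loci were called in the same order and no member. Libraries sharing a number had correlations of −0.08 to 0.24 in 12 pairs, 4 of them above 0.1. The pairs of number 4 were at 0.24, 0.19 and 0.13. The 36 pairs of unlike number ran from −0.38 to 0.29. The ranges overlap, so these correlations cannot decide whether the numbers pair the libraries. Depth per library was not resolved throughout, and the 95% interval of Fos in siHdac4, −0.16 to 1.08, shows the precision that 4 libraries a group give for a variable gene.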
